A study of Mus musculus with 4 samples.

Results

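This account covers 10 genes of fibroblast growth factor (FGF) signalling: the ligand genes Fgf2, Fgf7, Fgf10, Fgf13 and Fgf21, the receptor genes Fgfr1, Fgfr2 and Fgfr3, and the Sprouty genes Spry1 and Spry2. They were found by gene symbol in the annotation of the array and were measured by 15 of the 22690 probe sets in the table, 6 for ligands, 6 for receptors and 3 for Sprouty genes. RNA came from YAMC cells, a conditionally immortalised line of young adult mouse colon epithelium, known to carry a temperature-sensitive large T antigen. The cells were left untreated or were kept for 16 h with conditioned medium of the probiotic bacterium Lactobacillus GG (LGG). There were 2 arrays of type 430A in each group, and by their titles each of 2 dates, here date 1 and date 2, held 1 array of each group. What a date marks is not given. Nothing in the labels says that arrays came from separate cultures, so p-values measure only the spread between these arrays, which may be technical. No array was labelled as a control kept in plain or acidified medium, so the part of the medium or its acidity was not tested.

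FGF ligands bind receptor tyrosine kinases at the cell surface together with heparan sulfate or, for the endocrine ligands, with a Klotho protein. The receptors signal through FRS adaptors, RAS and MAP kinases, and Sprouty proteins are induced by this signal and dampen it. In the intestine, FGF7 and FGF10 are classically made by mesenchyme and act on an epithelial form of FGFR2, whereas FGFR3 is known from the crypt epithelium of the developing gut.

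Values are linear intensities in arbitrary units, on arrays whose trimmed means lay between 500.1 and 513.5. A probe set was tested where it had a value on all arrays and a mean of at least 101. Intensities are not compared between probe sets, because each has its own brightness per transcript. The epithelial label was only partly borne out by marker genes. Of 16 epithelial markers 6 passed the intensity filter, among them the keratin genes Krt8 (431.0 to 653.3 over the 4 arrays) and Krt18 (834.8 to 1966.8), while Epcam (6.0 to 9.0), Cdh1 (8.7 to 41.8) and Vil1 (1.7 to 10.5) were under it. Of 11 mesenchymal markers with values 8 passed, with Vim at 9532.0 to 12488.5 and Col1a1 at 6568.6 to 10156.3. Thy1 (51.4 to 93.7), Lum (59.8 to 88.6) and Pdgfrb (48.2 to 80.1) were under the filter. The summed intensity of the mesenchymal markers was 44358 and 38838 untreated and 36469 and 32488 with LGG. That of the epithelial markers was 4870 and 6008 against 5206 and 4998. Each sum is weighted to its brightest probe sets and need not describe every marker in it. The sums can therefore be read between arrays but not between cell types. Dcn, a mesenchymal matrix gene, fell (log2 change -0.91), and no epithelial marker passed the test. Of 5 smooth muscle, 5 endothelial and 5 leukocyte markers with values, 3, 1 and 2 passed the filter, and Kdr (endothelial, 1.29) and Cd68 (leukocyte, 1.06) rose, while the pan-leukocyte gene Ptprc was at 15.4 to 37.2 and the endothelial gene Pecam1 at 12.1 to 48.0. The part of these markers in the results was not tested.

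Of the 10 genes, 5 had a probe set bright enough to be tested, and 1 of these 5, Fgf21, rose and 0 fell (limma, the date as a block, adjusted p under 0.05 after Benjamini-Hochberg; 2 had an unadjusted p under 0.05). Over all 6952 genes tested, 6.50% passed, 3.01% as higher and 3.50% as lower. The genes with no probe set tested were Fgf2, Fgf10, Fgf13, Fgfr1 and Spry2, and their values are given without a test. Of the 13 probe sets with values on all arrays, 4 had both treated arrays above both untreated arrays and 1 had both below, against 20.7% and 21.1% of all 16319 such probe sets. In bulk RNA, fewer cells of a type and less RNA per cell cannot be told apart.

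**Figure D1:**
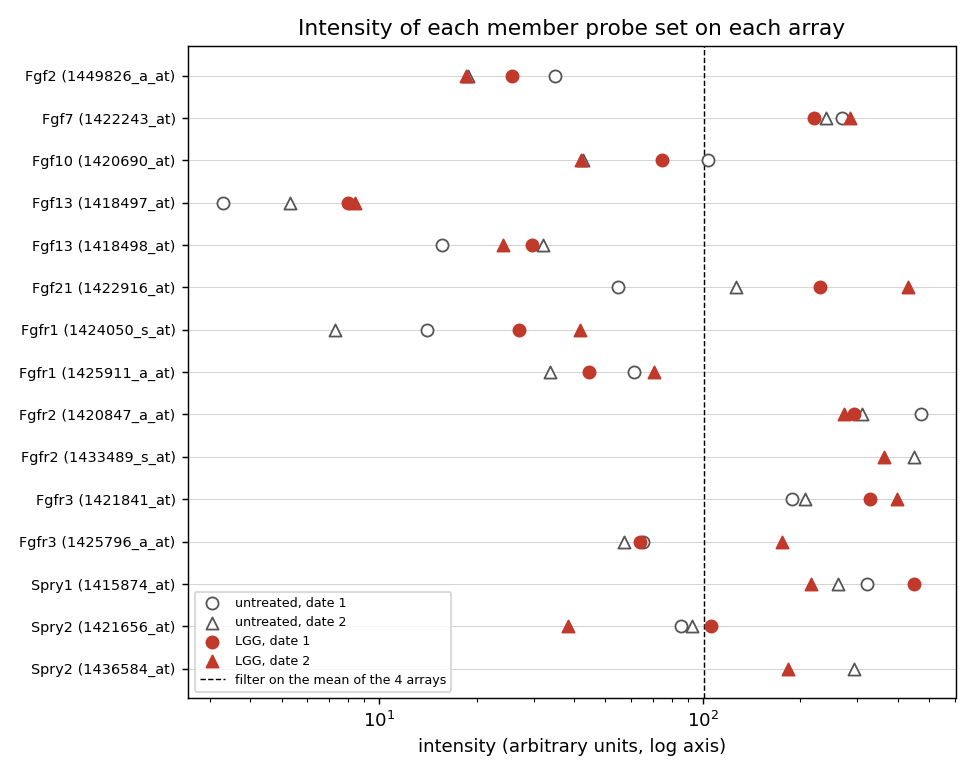
Intensity (log axis, arbitrary units) of each of the 15 probe sets on each array, with untreated arrays as open symbols, LGG arrays as filled symbols, date 1 as circles and date 2 as triangles. The dashed line is the filter of 101 on the mean of the 4 arrays. Both LGG values of Fgf21 (230.3 and 429.3) lie to the right of both untreated values (54.7 and 126.4), and 2 probe sets have values at date 2 only.

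Fgf21, an endocrine FGF known as a hormone of fasting and of cellular stress, had the largest fitted change of the 5 members tested. Its single probe set, 1422916_at, measured 54.7 at date 1 and 126.4 at date 2 untreated and 230.3 and 429.3 with LGG. The groups did not overlap, and within each group the array of date 2 was the brighter. The treated array was 4.21 times as bright as the untreated one at date 1 and 3.40 times at date 2. With 25.2 added to each intensity before taking logs, which understates the change of dim genes, the log2 ratios were 1.68 and 1.58. The fitted log2 change was 1.63 ± 0.26 (SE; limma, adjusted p = 0.00272), from a mean of 90.55 ± 50.7 to 329.8 ± 141 (SD, n = 2 arrays per group). The untreated mean lay under the filter of 101, so the gene was tested only because the treated arrays were bright. With the filter lowered to 50.5, which the untreated mean passes by itself, the log2 change stayed at 1.63 (adjusted p = 0.0123), a setting chosen after the values were seen. The call was lost without date as a block (adjusted p = 0.102), with no filter (0.106) and without untreated replicate 1, untreated replicate 2 or LGG replicate 2 (log2 changes 1.17, 2.09 and 1.22; adjusted p = 0.65, 0.41 and 0.161), in fits without the block and with replicate numbers equal to date numbers, and it was kept without LGG replicate 1 (2.05, adjusted p = 0.0249).

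The start of Fgf21 is shown because it is the member that rose and because its transcription is known to be driven by ATF4 through C/EBP-ATF response elements. The window is from RefSeq, build GRCm38.p6, chr7:45615441-45615740 on the minus strand, and runs from 250 bases before to 50 bases after the annotated start, with motif matches in capitals.
Fgf21 promoter: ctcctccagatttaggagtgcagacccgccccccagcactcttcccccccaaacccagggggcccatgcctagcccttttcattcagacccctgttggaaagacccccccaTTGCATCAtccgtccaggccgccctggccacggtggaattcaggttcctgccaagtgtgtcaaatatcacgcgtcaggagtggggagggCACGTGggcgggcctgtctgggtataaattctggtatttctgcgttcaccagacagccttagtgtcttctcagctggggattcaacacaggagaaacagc
Windows of this length were searched on both strands for 5 motifs chosen with the results in view: the C/EBP-ATF element TGATGNAA, the E-box CACGTG, the ETS core CCGGAA, the heat shock element GAANNTTCNNGAA and the AP-1 site TGANTCA. The table held 13 windows for 9 of the 10 genes. The C/EBP-ATF letters were found in the Fgf21 window on the reverse strand, 139 to 132 bases before the start, and in no other window of these genes, against 3.97% of all 32851 windows. The E-box was found 50 to 45 bases before the start of Fgf21 and in the Fgfr2 window, against 7.15% of all windows. The ETS core was found in the Spry2 window (14.9% of all windows), the AP-1 letters in 1 window of Fgf13 (7.81%) and the heat shock element in none of the 13 (0.603%). A match describes letters and is not a shown binding site. The genes of 2 factors known to act on Fgf21 were looked up after their values were seen. Atf4, which encodes the ATF4 factor, measured 2861.3 and 2712.0 untreated and 4254.6 and 3786.2 with LGG (log2 change 0.52 ± 0.16, adjusted p = 0.0652), and Ddit3, which encodes CHOP, measured 263.2 and 363.0 against 2212.5 and 1116.0 (2.26 ± 0.29, adjusted p = 0.000709). Both genes had treated values above untreated values at each date, and only Ddit3 passed. Whether ATF4 or CHOP had a part in the rise of Fgf21 was not tested.

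The 5 genes whose pattern over the 4 arrays lay nearest to that of Fgf21, by Euclidean distance between log2 values centred on each gene's mean, were Slc25a30 (distance 0.190), Rras (0.362), Cxcl10 (0.453), Dennd11 (0.514) and Ndrg4 (0.527). Slc25a30, a mitochondrial carrier gene, measured 625.6 and 1168.0 untreated and 1870.8 and 3085.1 with LGG, so that it too was higher at date 2 within each group. Each distance rests on 4 arrays, and genes chosen by it share the pattern of Fgf21 through that choice.

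FGF21 acts through FGF receptors with the co-receptor beta-Klotho, encoded by Klb. The Klb probe sets measured 7.4 to 17.6 (1426075_at) and 12.8 to 47.5 (1449568_at) over the 4 arrays, and those of Kl, the co-receptor gene for another endocrine FGF, 5.8 to 42.7 (1423400_at) and 4.4 to 15.4 (1451892_at). All 4 were under the intensity filter, so neither co-receptor gene was tested.

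Of the ligands that signal to neighbouring cells, Fgf7, which encodes keratinocyte growth factor, was the only one of the members bright enough to test. It measured 269.6 and 239.7 untreated and 220.0 and 284.4 with LGG. The groups overlapped, the ratio was below 1 at date 1 (log2 ratio -0.27) and above 1 at date 2 (0.23), and the fitted change of -0.02 ± 0.26 did not pass (adjusted p = 0.979). Fgf10, the closest relative of Fgf7 in function, measured 103.8 and 42.7 against 74.9 and 41.9, with log2 ratios of -0.37 and -0.02. In each group the array of date 1 was the brighter, and at date 2 the groups were nearly level. Fgf2, which encodes basic FGF, measured 34.8 and 18.8 against 25.8 and 18.6, and it also was brighter at date 1 in both groups (log2 ratios -0.23 and -0.01). Fgf13 encodes a homologous factor that stays inside the cell and binds sodium channels. Its probe sets measured 3.3 and 5.3 against 8.0 and 8.4 (1418497_at) and 15.6 and 32.1 against 29.6 and 24.2 (1418498_at). The groups were apart in the first and overlapped in the second, and all values of both lay at or below 32.1, under the filter.

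**Figure D2:**
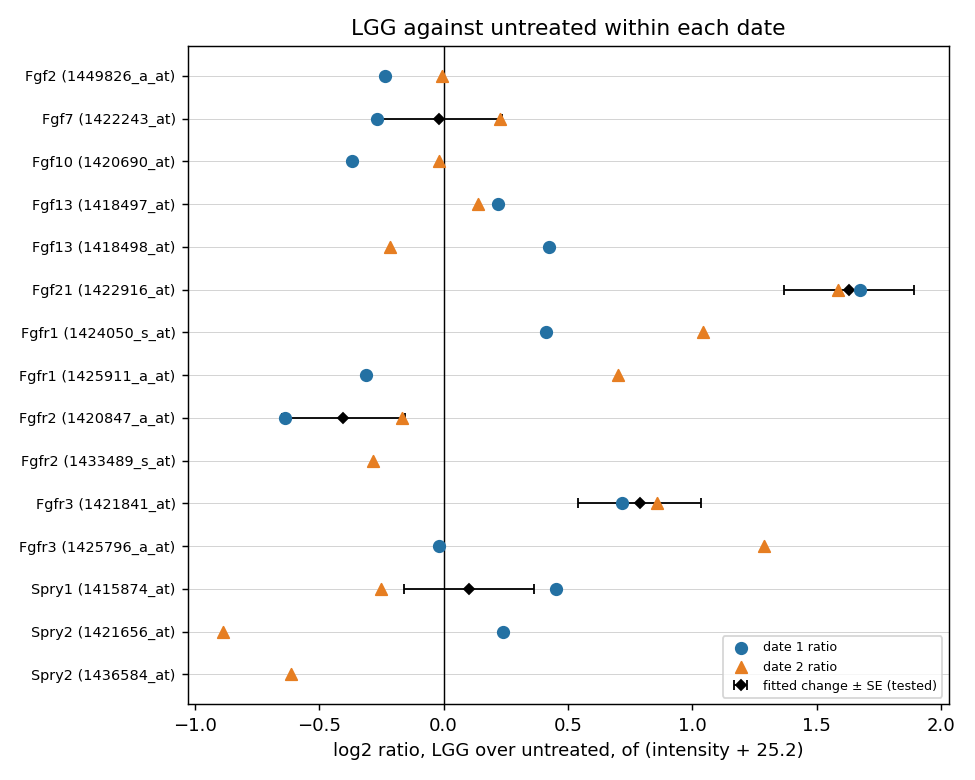
Log2 ratio of treated over untreated intensity, after adding 25.2, for each probe set at date 1 (circles) and date 2 (triangles), with the fitted change ± SE (diamonds) for the 5 probe sets tested. The ratios of Fgf21 (1.68 and 1.58) and of Fgfr3 probe set 1421841_at (0.72 and 0.86) lie close together, while those of Spry1 (0.45 and -0.25) lie on opposite sides of 0.

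Of the 3 receptor genes, Fgfr2 and Fgfr3 were tested and neither passed. Fgfr3, which encodes a receptor for several FGFs and is best known as a brake on cartilage growth, measured 188.8 and 207.0 untreated and 327.1 and 396.0 with LGG with probe set 1421841_at. The groups did not overlap, the log2 ratios were 0.72 and 0.86, and the fitted log2 change of 0.79 ± 0.25 (means 197.9 ± 12.9 and 361.6 ± 48.7, n = 2 arrays per group) missed the threshold (limma, adjusted p = 0.0766). It passed only when the probe sets of each gene were averaged before the fit (adjusted p = 0.0178), a setting that for Fgfr3 averages nothing, since 1 of its probe sets was tested, and that changes the variance shared across genes. The dimmer Fgfr3 probe set, 1425796_a_at, measured 65.1 and 57.0 against 64.0 and 175.6. It showed no difference at date 1 (log2 ratio -0.02) and a higher treated value at date 2 (1.29), so the probe sets disagreed at date 1.

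Fgfr2 encodes the receptor whose epithelial form binds FGF7 and FGF10. It measured 470.0 and 310.1 untreated and 293.1 and 273.2 with LGG with probe set 1420847_a_at. Both treated values were lower, but the untreated arrays differed from each other by more than the groups did at date 2, and the fitted log2 change of -0.40 ± 0.25 did not pass (adjusted p = 0.399). Without untreated replicate 1, the brightest array, it was -0.12. The other Fgfr2 probe set, 1433489_s_at, had values at date 2 only, 447.8 untreated and 363.5 treated (log2 ratio -0.28). Whether the epithelial or the mesenchymal splice form was measured cannot be read from these probe sets.

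Fgfr1, which encodes the receptor typical of mesenchymal cells, was dim in both of its probe sets. Probe set 1424050_s_at measured 14.1 and 7.3 untreated and 27.1 and 41.8 with LGG, apart between the groups. Probe set 1425911_a_at measured 61.3 and 33.8 against 44.5 and 70.7, lower with treatment at date 1 (log2 ratio -0.31) and higher at date 2 (0.70). The probe sets therefore agreed on a higher value at date 2 and disagreed at date 1. With the filter lowered to 50.5, 1425911_a_at was tested and had a log2 change of 0.20 ± 0.36 (adjusted p = 0.837).

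Spry1 and Spry2, whose proteins restrain RAS and MAP kinase signalling, were higher with treatment at date 1 and lower at date 2. Spry1 measured 320.3 and 260.8 untreated and 448.2 and 215.3 with LGG. The treated arrays were the highest and the lowest of the 4, with a log2 ratio of 0.45 at date 1 and of -0.25 at date 2, and the fitted change of 0.10 ± 0.26 did not pass (adjusted p = 0.877). Spry2 probe set 1421656_at measured 85.8 and 92.3 against 105.7 and 38.3 (log2 ratios 0.24 and -0.89). The other Spry2 probe set, 1436584_at, had values at date 2 only, 293.1 untreated and 182.8 treated, and was also lower with treatment there (log2 ratio -0.61). With the filter lowered to 50.5, 1421656_at had a log2 change of -0.33 ± 0.35 (adjusted p = 0.691).

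Of 8 other feedback inhibitors and targets of FGF signalling tested, 6 were, like Spry1, higher with treatment at date 1 and lower at date 2. By limma 0 rose and 0 fell (0 at an unadjusted p under 0.05), with a median log2 change of 0.18 against 0.03 over all genes. Fitted without LGG replicate 1, the date 1 array, the log2 change was -1.51 for Dusp6 and -1.09 for Egr1. Without LGG replicate 2 it was 1.74 for Fos, 1.34 for Egr1 and 1.199 for Ier2, so that the direction for Egr1 turned with the array left out. Both fits had no block and took the single treated array to vary like the untreated ones. The median log2 ratio was 0.58 at date 1 and -0.35 at date 2. Together with Spry1, 7 of 9 genes were higher with treatment at date 1 and lower at date 2, against 12.9% of all genes tested. This pattern was looked for after the values were seen and has no test. The genes of this list under the filter with values on all arrays did not have it. Spry4 was higher with treatment at both dates (log2 ratios 0.72 and 0.70 for 1422020_at, 0.27 and 0.67 for 1422021_at). Etv4 was too (1.79 and 0.24), while Spred2 probe set 1423001_at was lower at date 1 and higher at date 2 (-0.098 and 0.185). Dusp6, which encodes a phosphatase of ERK, measured 726.6 and 477.3 untreated and 1163.2 and 191.0 with LGG. Egr1, an immediate early transcription factor gene, measured 2119.5 and 1509.9 against 4553.3 and 829.9. Fos, of the AP-1 family, measured 486.3 and 353.2 against 1444.1 and 243.3. In all 3 the treated array of date 1 was the brightest of the 4 and the treated array of date 2 the dimmest. Myc and Ier2 had the same signs. Spred1 had them with its brightest probe set (1423161_s_at, log2 ratios 0.12 and -0.50), by which it is counted here, but 1423160_at was lower at both dates (-0.26 and -0.58) and 1423162_s_at higher at both (0.06 and 0.49). Etv5, an ETS factor gene induced by FGF (log2 change 0.27), was higher and Ccnd1, the cyclin D1 gene (-0.28), lower at both dates by their brightest probe sets. Etv5 probe set 1450082_s_at (log2 ratios 0.32 and -0.29) and Ccnd1 probe set 1417419_at (0.545 and -0.357) were higher at date 1 and lower at date 2. Ccnd1 probe set 1417420_at was lower at both (-0.029 and -0.615). None of the 8 genes passed in the fit over all arrays. The signs at the dates belong to 1 pair of arrays each, so a difference between the dates cannot be told apart from a difference between 2 treated arrays.

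**Figure D3:**
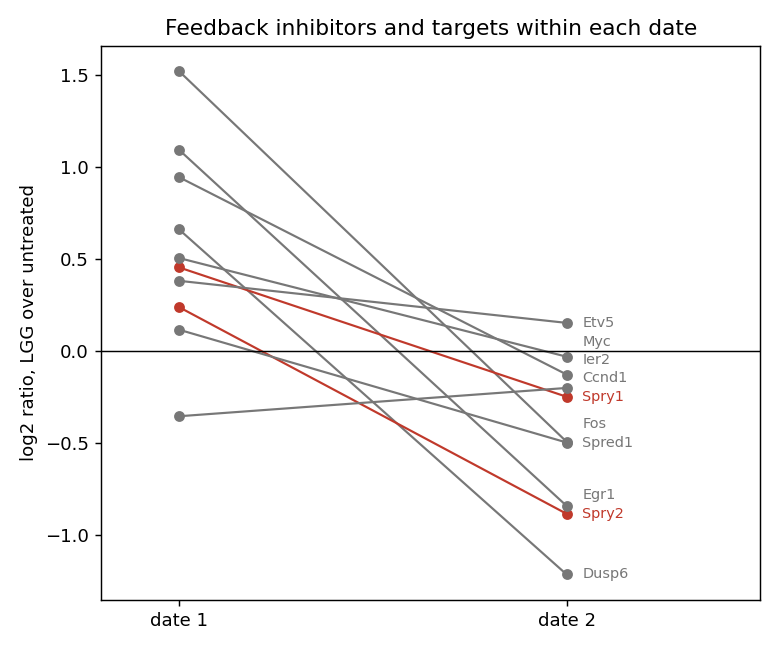
Log2 ratio of treated over untreated intensity within each date for 8 feedback inhibitors and targets (grey, each by its brightest probe set) and for Spry1 and Spry2 probe set 1421656_at (red), with 1 line per gene. Dusp6, Egr1, Fos, Ier2, Myc, Spred1, Spry1 and Spry2 lie above 0 at date 1 and below it at date 2. Etv5 lies above 0 and Ccnd1 below it at both dates. Spry2 is drawn although under the filter, while Spry4, Etv4 and Spred2, also under it and without this pattern, are not drawn.

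Among the other FGF ligands, 17 had probe sets and 2 were bright enough to test; 0 rose and 0 fell (1 at an unadjusted p under 0.05). Fgf5, a ligand known for ending the growth phase of hair, measured 1431.1 and 1191.2 untreated and 688.9 and 1018.5 with LGG. The groups did not overlap and the ratio was larger at date 1 (log2 ratios -1.03 and -0.22), but the fitted change of -0.62 ± 0.23 did not pass (adjusted p = 0.139). It passed only in the setting that averages probe sets (limma, adjusted p = 0.0393). For Fgf5, with its single probe set, that setting averages nothing. It changes the variance shared across genes and the set of p-values that are adjusted together. Fgf4 measured 106.4 to 173.5 with probe set 1450282_at (log2 change 0.21, limma, adjusted p = 0.718). Its other probe sets, 1420085_at, 1420086_x_at and 1449729_at, had values at date 2 only, between 2.9 and 9.9.

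Of 4 further receptor and co-receptor genes tested, 1 rose and 1 fell, with a median of -0.15. Fgfrl1, which encodes an FGF receptor that lacks the kinase, rose from 623.3 and 442.5 to 852.8 and 1320.5. The groups were apart, the log2 ratios were uneven (0.44 and 1.53), and the fitted log2 change was 0.98 ± 0.26 (adjusted p = 0.0402). The call was lost in 8 of 10 other settings and without untreated replicate 1, untreated replicate 2 or LGG replicate 2 (log2 changes 1.22, 0.75 and 0.67). Ncam1, an adhesion molecule that can bind FGF receptors, fell from 2224.1 and 2128.2 to 829.5 and 496.8, a log2 change of -1.72 ± 0.22 (adjusted p = 0.000709). Its other bright probe sets 1450437_a_at and 1426865_a_at fell too (-1.29 and -0.98), and 1425126_at did not pass (0.03). The call was lost with no filter (adjusted p = 0.0818) and without untreated replicate 1 or untreated replicate 2 (0.351 and 0.41), and with probe sets averaged the change was -0.99.

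Of 12 adaptors and relay kinases tested, 1 rose and 0 fell, with a median of 0.02. Frs3, which encodes an adaptor that docks on FGF receptors, rose from 81.7 and 161.3 to 242.4 and 301.7 (log2 change 1.07 ± 0.27, adjusted p = 0.0314). Both treated values were above both untreated ones, and the array of date 2 was the brighter in each group. The call was lost without date as a block (adjusted p = 0.165), with no filter (0.197), with the filter at 50.5 (0.0604) and with any 1 array left out (log2 changes 0.67 to 1.47). The RAS activators Sos1 (0.58) and Sos2 (0.45) and the kinase gene Map2k2 (-0.54) did not pass. By its brightest probe set, each had the same sign at both dates. Sos1 probe sets 1421885_at (log2 ratios -0.415 and 0.922) and 1421886_at (-0.402 and 0.906) were lower with treatment at date 1 and higher at date 2. Map2k2 passed only when its probe sets were averaged (-0.85, limma, adjusted p = 0.00913). Its dimmer probe set, 1460636_at, measured 357.5 and 360.2 untreated against 300.8 and 66.2 with LGG. The change of that probe set lay mostly on the treated array of date 2 (log2 ratios -0.23 and -2.08). Ptpn11, which encodes the phosphatase SHP2, measured 3332.7 and 3333.7 against 3147.3 and 3113.0 (-0.09, adjusted p = 0.806).

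Heparan sulfate is needed for most FGFs to bind their receptors. Of 19 genes of its carriers and enzymes tested, 0 rose and 3 fell (3.50% of all genes tested fell), and 9 were lower at both dates (47.4% of the list against 30.2% of all genes tested), with a median of -0.23. Hs3st1, a sulfotransferase gene, fell from 558.3 and 526.1 to 217.8 and 246.8 (log2 change -1.14 ± 0.24, adjusted p = 0.0126). Sulf2, which encodes an enzyme that removes sulfate outside the cell, fell from 2743.6 and 2876.6 to 1334.2 and 1641.4 (-0.91 ± 0.18, adjusted p = 0.00942). In both genes the treated values were well below the untreated ones at each date. These calls were lost without date as a block (adjusted p = 0.065 for Hs3st1 and 0.0658 for Sulf2), with no filter (0.13 and 0.108), that of Sulf2 without the intensity trend (0.0558), and both without untreated replicate 1 or untreated replicate 2 (0.473 to 0.561). Hs2st1, another sulfotransferase gene, fell with its brightest probe set (from 1339.3 and 1404.0 to 790.6 and 842.8; -0.73, adjusted p = 0.0492), but its probe sets 1422739_at and 1450730_at had changes of 0.63 and 0.18, the change with all 3 averaged was 0.03, and the call was kept in 0 of 10 other settings. Sdc2, which encodes the core protein syndecan 2, did not pass with its brightest probe set, 1448545_at (-0.24, adjusted p = 0.568), while 1417011_at fell (from 1246.9 and 1099.9 to 516.0 and 598.4; -1.04, adjusted p = 0.0129) and 1417012_at had a change of 0.40 (adjusted p = 0.369). Gpc1, which encodes the core protein glypican 1, had a change of 0.58 that lay almost wholly at date 2 (log2 ratios 0.05 and 1.11) and did not pass (adjusted p = 0.295); without LGG replicate 1 it was 1.21 (adjusted p = 0.0479) and without LGG replicate 2 -0.04.

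**Figure D4:**
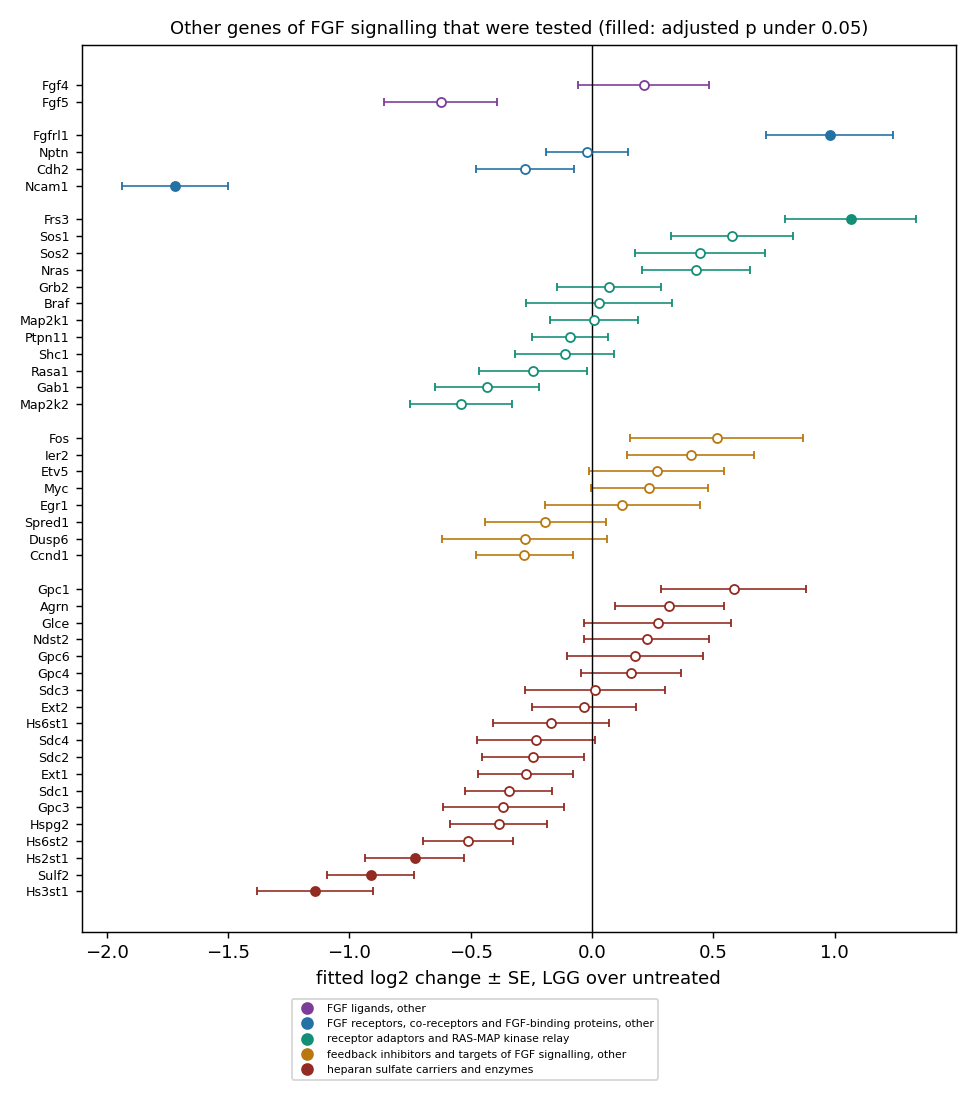
Fitted log2 change ± SE for the 45 other genes of FGF signalling that were tested, coloured by list, with filled symbols for an adjusted p under 0.05. The 2 genes that rose are Fgfrl1 (0.98) and Frs3 (1.07), and the 4 that fell are Ncam1 (-1.72), Hs3st1 (-1.14), Sulf2 (-0.91) and Hs2st1 (-0.73).

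Over the 5 lists together, 2 of 45 genes rose and 4 fell, against 3.01% and 3.50% of all genes tested, and the median log2 change was -0.03. The 5 member genes tested had a median of 0.10, against 0.03 over all 6952 genes.

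**Figure D5:**
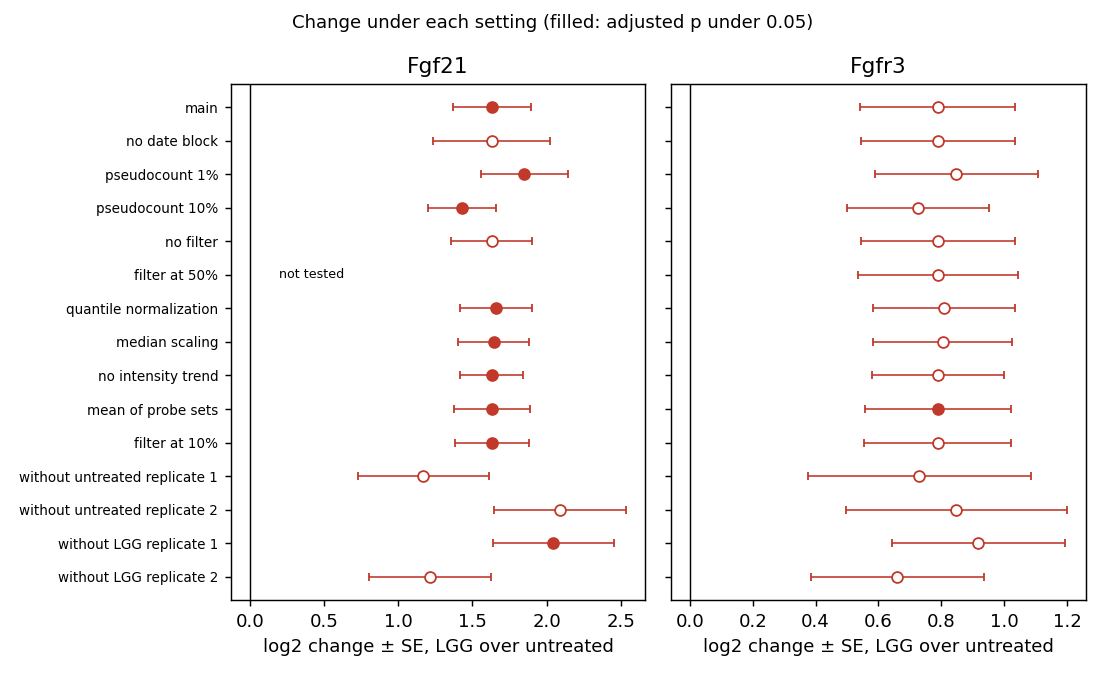
Log2 change ± SE of Fgf21 (left) and Fgfr3 (right) under each setting, with filled symbols for an adjusted p under 0.05. The change of Fgf21 stays between 1.17 and 2.09 and that of Fgfr3 between 0.66 and 0.92, and Fgf21 was not tested with the filter at 50% of the trimmed mean.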

How the data were processed

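The deposited table gives, for each array, a linear intensity per probe set, made by the authors; software, scaling and filters are not given in the sources used here. Groups and dates came from the array titles. Both arrays of date 1 lacked values for the same 6307 probe sets, which were left out of every test. Probe sets were named from the platform annotation, and all 10 member symbols matched RefSeq (GRCm38.p6) by Entrez identifier; a gene was its brightest probe set tested. Probe sets whose symbol field lists several genes (691) were not used for names, and 64 control probe sets were set aside.

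Values were used as log2(intensity + 25.2), the pseudocount being 5% of 504.9, the geometric mean over arrays of their trimmed means (lowest and highest 2% removed), and the filter of 101 being 20% of it. The fit used limma 3.58.1 in R 4.3.3 over all 10333 probe sets tested, with group and date, an intensity trend and two-sided Benjamini-Hochberg adjustment (threshold 0.05). The dates pair the arrays because the titles place 1 array of each group at each date; the difference between the dates correlated at 0.271 between the groups across probe sets. The block left 1 residual degree of freedom per probe set against 12.5 prior ones, so p-values and SEs rest mostly on variance shared across genes, and on simulated data false calls exceeded the nominal share. The smallest two-sided p of an exact permutation test of 2 arrays against 2 is 0.333.

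Members, lists and motifs were chosen with earlier results of these data known. Named genes are all members, genes of each list that passed, up to 4 per list with the largest change among those of 1 sign on both dates, the 5 nearest patterns to Fgf21 and marker genes. Dusp6, Egr1, Fos, Myc, Ier2, Spred1, Ptpn11, Sdc2, Glce, Spred2, Il17rd, Fgfr4, Spry4, Etv4, Klb, Kl, Atf4, Ddit3, Vil1, Thy1, Lum, Pdgfrb, Dcn, Kdr, Cd68, Ptprc and Pecam1 were chosen after their values were seen. Alternatives were the block, pseudocount, filter, normalization, variance trend, probe set averaging and each array left out. Figures used matplotlib 3.10.9.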

Additional observations from a re-analysis of the deposited data

How the results depend on the processing

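Of 452 genes, 1 member and 6 genes of the lists called, the counts without date as a block (no replicate block) were 61, 0 and 1; with no filter 0, 0 and 0 (1525, 2 and 11 at an unadjusted p under 0.05 by limma); with the filter at 50% of the trimmed mean 340, 0 (Fgf21 then not tested) and 3; and without the intensity trend 244, 1 and 3. With the filter at 10%, added after seeing the data, they were 264, 1 and 3, with averaged probe sets 813, 2 and 8, and with median scaling 296, 1 and 4. Leaving out 1 array, fitted without the block, gave 0 to 428 genes, 0 to 1 members and 0 to 7 list genes. The cause of these shifts was not tested. Signs turned for Hs2st1 with averaged probe sets (0.027), and with 1 array left out for Fgf7 (range -0.19 to 0.15; 0.06 without untreated replicate 1 and 0.15 without LGG replicate 1), Spry1 (-0.39 to 0.59; -0.03 without untreated replicate 2 and -0.39 without LGG replicate 1), Etv5 (range -0.054 to 0.586) and Gpc1 (range -0.039 without LGG replicate 2 to 1.207 without LGG replicate 1, adjusted p = 0.0479 in the latter). Over the other alternatives the members tested kept their direction; Fgfr3 gained and Fgf21 lost a call as given in the report. With 2 arrays per group and no detection calls, members under the filter have no bound against background.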

Other observations

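Beside the comparison of the groups, 22 probe sets for 16 genes of the FGF signalling lists had values at date 2 only. Of these, 9 had a mean of at least 101 on the 2 arrays of that date, and 0 of the 9 were 2-fold higher or lower with treatment, against 2.29% and 4.03% of all 3675 such probe sets. Glce, which encodes the epimerase that acts on heparan sulfate, came nearest, at 664.3 untreated and 1290.7 treated (log2 ratio 0.93), and its other probe set, 1425876_a_at, measured 154.5 and 298.5 at date 2 but 180.9 and 141.4 at date 1. Spred2, a relative of the Sprouty genes, measured 566.3 and 477.9, and Il17rd, which encodes the FGF antagonist SEF, 115.1 and 105.9. Fgfr4 probe set 1427846_x_at measured 94.8 and 149.5, and Fgfr4 probe set 1418596_at 79.1 and 86.5 at date 2 and 112.7 and 76.7 at date 1. Each of these ratios comes from 1 array per group. Spry4, which had values on all arrays but was under the filter, measured 15.2 and 14.3 untreated against 41.3 and 38.8 treated (1422020_at) and 20.2 and 13.8 against 29.4 and 36.8 (1422021_at), higher with treatment at both dates and so unlike Spry1 and Spry2.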
